A study of Mus musculus with 5 samples.

Results

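The matrix metalloproteinases (MMPs) and their tissue inhibitors (TIMPs) are described here in B16F1 cells, a line of mouse melanoma, through 6 proteinase genes (Mmp2, Mmp9, Mmp11, Mmp14, Mmp15 and Mmp23) and 4 inhibitor genes (Timp1, Timp2, Timp3 and Timp4). Every probe whose RefSeq accession belongs to one of these 10 genes was taken, which gave 14 probes of 56595 kept on the array and 10 of its 22907 named genes. Mmp9, Timp2, Timp3 and Timp4 had 2 probes each and the other genes 1. RNA of 5 cultures was hybridised with 1 dye, Cy3, to 1 array each.

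Both Tmsb4x knockout arrays came from B16F1 cells labelled as knocked out for Tmsb4x, the gene of thymosin β4, a small protein that binds actin monomers. They were 2 clones, each given TGF-β1 at 10 ng/ml for 2 days. The wild-type arrays were 1 culture with the same TGF-β1 dose and time plus 10 µM CCG1423, an inhibitor of the actin-regulated coactivator MRTF per the labels, 1 culture with TGF-β1 alone and 1 with vehicle. The labels gave 2 days for the other cultures, and no time was read from them for the vehicle culture. No knockout culture with vehicle was analysed here, so a difference of the knockout without TGF-β1 has no value. The labels call the lines knockout, the study's design text calls them knockdown, and neither says what was deleted. The treatment field of the CCG1423 array names that compound alone, whereas its title and description name TGF-β1 as well.

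MMPs are zinc-dependent endopeptidases, made as inactive precursors, that cut collagens, laminins, fibronectin and other proteins around the cell. TIMPs bind their active sites and block them, and TIMP2 together with MMP14 also takes part in activating the MMP2 precursor at the cell surface. In melanoma the family is known for its part in remodelling of the matrix during invasion. TGF-β is a known regulator of matrix genes and of their proteases and inhibitors.

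Levels are log2 processed signals of the scanner software from which the 75th percentile of all probes on the same array was subtracted, so a level of 0 is the array's 75th percentile and a difference of 1 is 2-fold. Levels of different probes cannot be set against each other, because probes bind their targets with different strength. Detected means that the software marked the spot as well above background. The 75th percentile of the signal was 230 to 329 units over the 5 arrays, 48.2% to 53.8% of probes were detected, and no spot was saturated. Tmsb4x itself had a level of 5.44 in clone 1, 4.28 in clone 2, 6.79 with TGF-β1 and CCG1423, 7.12 with TGF-β1 and 5.05 with vehicle. It was 3.21-fold lower in clone 1 and 7.16-fold lower in clone 2 than in wild-type cells with TGF-β1 (limma adjusted p = 0.116), but it was still detected in both, and where its probe lies relative to the deletion is not given in the sources used here. All 7 melanocyte markers (Mlana, Pmel, Tyr, Tyrp1, Dct, Mitf and Sox10) were detected on all 5 arrays, while the defining markers of leukocytes (Ptprc), macrophages (Adgre1), fibroblasts (Pdgfra, Pdgfrb and Dcn), epithelium (Epcam and Cdh1) and endothelium (Cdh5 and Kdr) were detected on none. Other genes of those marker lists were detected: Cd68, Csf1r, Itgam and Postn on all 5 arrays, Pecam1 on 4, Krt14 and Krt5 on 3 and Lum on 1. Each array measured a bulk culture, so fewer cells of a kind and less RNA per cell cannot be told apart in what follows.

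The promoters of Timp3 and Timp4, the inhibitors with the widest ranges over the arrays, and of Mmp15 and Mmp23, the proteinases that were at least 2-fold lower in both knockout clones, are printed from RefSeq (build GRCm38.p6), 5′ to 3′ along the gene from 250 bases before its start to 50 after it. Capitals mark the SMAD core CAGAC and the GC box GGGCGG on either strand. Mmp23 had 2 start sites in that table, of which 1 is shown.
Timp3 promoter (chr10:86300162-86300461, plus strand): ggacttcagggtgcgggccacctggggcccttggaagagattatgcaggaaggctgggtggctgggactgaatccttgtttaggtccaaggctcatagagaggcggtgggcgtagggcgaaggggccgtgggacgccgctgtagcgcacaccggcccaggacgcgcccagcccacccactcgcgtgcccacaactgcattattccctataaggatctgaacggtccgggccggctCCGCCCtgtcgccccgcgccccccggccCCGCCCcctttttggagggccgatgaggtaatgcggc
Timp4 promoter (chr6:115252156-115252455, minus strand): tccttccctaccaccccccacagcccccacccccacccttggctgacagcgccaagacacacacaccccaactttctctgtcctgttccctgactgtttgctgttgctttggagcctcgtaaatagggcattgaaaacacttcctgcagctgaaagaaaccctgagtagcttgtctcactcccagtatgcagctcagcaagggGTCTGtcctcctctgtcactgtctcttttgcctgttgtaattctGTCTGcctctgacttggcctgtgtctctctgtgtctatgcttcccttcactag
Mmp15 promoter (chr8:95352046-95352345, plus strand): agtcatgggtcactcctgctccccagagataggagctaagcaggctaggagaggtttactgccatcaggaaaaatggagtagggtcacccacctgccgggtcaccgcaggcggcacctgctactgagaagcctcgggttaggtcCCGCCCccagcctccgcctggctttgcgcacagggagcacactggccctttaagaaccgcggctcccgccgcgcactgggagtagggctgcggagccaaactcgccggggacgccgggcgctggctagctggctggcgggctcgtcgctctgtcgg
Mmp23 promoter (chr4:155653241-155653540, minus strand): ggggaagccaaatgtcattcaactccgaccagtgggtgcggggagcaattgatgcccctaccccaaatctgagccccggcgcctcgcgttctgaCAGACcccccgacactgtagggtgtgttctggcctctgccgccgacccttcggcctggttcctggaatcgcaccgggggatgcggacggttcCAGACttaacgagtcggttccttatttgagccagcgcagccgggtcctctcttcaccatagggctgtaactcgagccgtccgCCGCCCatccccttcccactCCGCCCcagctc
The 8 motifs searched on both strands, with the share of 32851 mouse promoter windows of the same length that hold each, were the AP-1 site TGANTCA (7.81%), the SMAD core CAGAC (49.6%), the palindromic SMAD element GTCTAGAC (0.213%), the MITF E-box TCATGTG (3.77%), the CArG box of SRF (1.63%), the ATF4-CHOP composite TGATGNAAT (0.965%), TATAAA (13.6%) and GGGCGG (35.7%). No marked site overlaps another in the printed windows. Among the 9 windows of 8 member genes that the table held, only CAGAC and GGGCGG had matches. CAGAC occurred at 2 places in the Timp4 window, at 2 in the Mmp23 window and at 1 in that of Mmp11, and GGGCGG in all but the Timp4 window and the second Mmp23 window. The absence of the other letters says only that they are not in these windows.

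**Figure D1:**
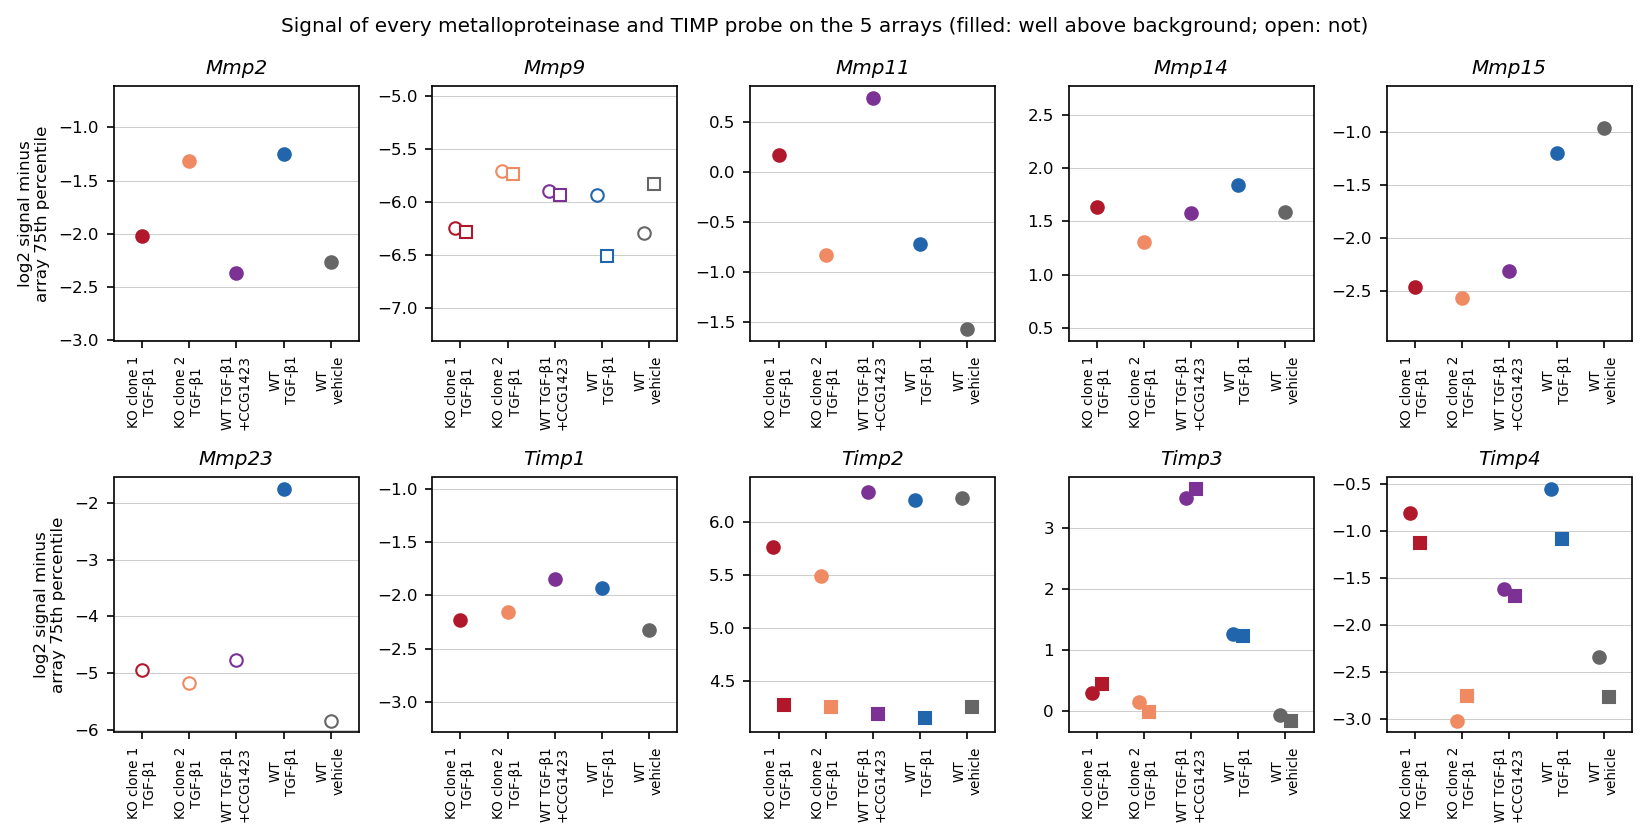
Level of each of the 14 probes on the 5 arrays, as log2 signal minus the array's 75th percentile, with 1 panel a gene and an axis of its own for each. Filled symbols were well above background and open ones were not; squares are the second probe of a gene. Both Timp3 probes were highest with TGF-β1 and CCG1423, and Mmp23 was detected with TGF-β1 alone.

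Of the 10 genes, 8 were detected on all 5 arrays, through 11 probes, and the signal of those probes carried a spot error of 10.0% to 17.5% per the scanner software. Mmp9, which encodes gelatinase B, was the only gene detected nowhere: its levels ran from -6.29 to -5.71 by probe A_66_P130121 and from -6.51 to -5.74 by probe A_52_P507214, so no difference is given for it. Mmp23 was detected on 1 array.

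Mmp2 encodes gelatinase A, a secreted enzyme that cuts type IV collagen and denatured collagen. Its level was -2.02 in clone 1, -1.32 in clone 2, -2.37 with TGF-β1 and CCG1423, -1.25 with TGF-β1 and -2.27 with vehicle. Clone 2 and the wild-type TGF-β1 culture were high, and clone 1, the CCG1423 culture and the vehicle culture were low. Relative to vehicle, TGF-β1 left Mmp2 2.03-fold higher, and the gene was 2.18-fold lower with CCG1423 added than with TGF-β1 alone. The mean of the clones differed from wild-type cells with TGF-β1 by -0.42 (SE 0.41), which was less than the 0.69 between the clones.

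Mmp11 encodes stromelysin-3, a secreted proteinase that is activated inside the cell by furin and has little action on the classical matrix substrates. Its level was 0.17 in clone 1, -0.83 in clone 2, 0.74 with TGF-β1 and CCG1423, -0.72 with TGF-β1 and -1.57 with vehicle. The CCG1423 culture was the highest and the vehicle culture the lowest, and the clones lay on either side of the wild-type TGF-β1 value. Mmp11 was 2.75-fold higher with CCG1423 added than with TGF-β1 alone, and TGF-β1 exceeded vehicle by 1.8-fold. The clones differed from each other by 2.01-fold and their mean differed from wild type by 0.39 (SE 0.42).

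Mmp14 and Mmp15 encode membrane-type proteinases, which act at the cell surface. Mmp14, the activator of the MMP2 precursor, had a level of 1.64 in clone 1, 1.31 in clone 2, 1.58 with TGF-β1 and CCG1423, 1.84 with TGF-β1 and 1.59 with vehicle. Its whole range over the arrays was 0.53, and no comparison reached 2-fold. Mmp15 had a level of -2.46 in clone 1, -2.57 in clone 2, -2.31 with TGF-β1 and CCG1423, -1.20 with TGF-β1 and -0.97 with vehicle. Both clones and the CCG1423 culture lay below the other wild-type cultures, a split drawn from these same values. Mmp15 was 2.39-fold lower in clone 1 and 2.58-fold lower in clone 2 than in wild-type cells with TGF-β1, a mean log2 difference of -1.31 (SE 0.36, limma adjusted p = 0.32, lower in 2 of 2 clones). It was 2.16-fold lower with CCG1423 added, whereas TGF-β1 and vehicle differed by -0.23.

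Mmp23 encodes a membrane proteinase that lacks the cysteine switch of other family members and is released by cleavage of its propeptide. It was detected in wild-type cells with TGF-β1 and nowhere else, at a level of -1.76 with a spot error of 10.6%. On the other arrays its level was -4.94 in clone 1, -5.18 in clone 2, -4.77 with TGF-β1 and CCG1423 and -5.84 with vehicle, and its spot error there reached 66.7%. Against the lowest detected signal of the dim array, Mmp23 was higher by at least 5.74-fold in the TGF-β1 culture than in the vehicle culture. By the same bound it was at least 4.48-fold lower with CCG1423 added, and at least 5.44-fold lower in clone 1 and at least 3.75-fold lower in clone 2 (limma adjusted p = 0.129). All 3 comparisons rest on the same wild-type array, and the gene had 1 probe. On that array 1144 probes (2.02% of all) were detected that were dim on the other arrays, against 697 to 992 such probes on each of the others. Of the 255 with a named gene and another probe of it, 6 had another probe that was also detected on that array alone.

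Timp1 and Timp2 encode secreted inhibitors of broad range. Timp1 had a level of -2.23 in clone 1, -2.16 in clone 2, -1.85 with TGF-β1 and CCG1423, -1.93 with TGF-β1 and -2.33 with vehicle, a range of 0.48 over the arrays. Its differences were -0.26 (SE 0.37) for the knockout, 0.08 for CCG1423 and 0.40 for TGF-β1. Timp2 had a level of 5.76 in clone 1, 5.49 in clone 2, 6.28 with TGF-β1 and CCG1423, 6.20 with TGF-β1 and 6.22 with vehicle by probe A_52_P540219. By its other probe, A_65_P12392, the levels were 4.27, 4.25, 4.19, 4.15 and 4.25 on those arrays. The first probe was lower in both clones than in every wild-type culture and the second was not: their knockout differences were -0.57 (SE 0.32) and 0.11 (SE 0.29). Both probes differed by at most 0.11 in size between the wild-type cultures compared.

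Timp3 encodes the inhibitor that stays bound to the extracellular matrix and also blocks several ADAM proteases. By probe A_51_P463765 its level was 0.30 in clone 1, 0.15 in clone 2, 3.48 with TGF-β1 and CCG1423, 1.26 with TGF-β1 and -0.06 with vehicle. By probe A_55_P2865447 it was 0.44 in clone 1, -0.02 in clone 2, 3.63 with TGF-β1 and CCG1423, 1.22 with TGF-β1 and -0.16 with vehicle. By both probes the CCG1423 culture was the highest, the TGF-β1 culture next, and the clones lay near the vehicle culture. The TGF-β1 culture exceeded the vehicle culture in Timp3 by 2.50-fold and 2.59-fold with the 2 probes. With CCG1423 added, Timp3 was 4.66-fold and 5.34-fold higher than with TGF-β1 alone. A difference as large as the last, in either direction, was reached by 4.86% and 4.19% of the probes compared. In the knockout Timp3 differed by -1.04 (SE 0.29, limma adjusted p = 0.334) and -1.01 (SE 0.31, limma adjusted p = 0.479), lower in 2 of 2 clones by both probes. Clone 1 was 1.95-fold and 1.71-fold lower and clone 2 was 2.16-fold and 2.35-fold lower.

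Timp4 encodes the inhibitor with the most restricted tissue distribution of the 4. By probe A_55_P2908603 its level was -0.81 in clone 1, -3.02 in clone 2, -1.62 with TGF-β1 and CCG1423, -0.55 with TGF-β1 and -2.34 with vehicle. By probe A_51_P355427 it was -1.12 in clone 1, -2.76 in clone 2, -1.69 with TGF-β1 and CCG1423, -1.08 with TGF-β1 and -2.77 with vehicle. Clone 1 lay near the wild-type TGF-β1 culture and clone 2 near or below the vehicle culture. The TGF-β1 culture had 3.46-fold and 3.21-fold more Timp4 signal than the vehicle culture. With CCG1423 added it was 2.09-fold and 1.53-fold lower. The clones differed from each other by 4.62-fold and 3.1-fold, and from wild-type cells with TGF-β1 clone 1 was 1.2-fold and 1.03-fold lower and clone 2 was 5.52-fold and 3.19-fold lower. The knockout means differed by -1.36 (SE 0.74) and -0.86 (SE 0.60) with a limma adjusted p of 1.0 each.

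**Figure D2:**
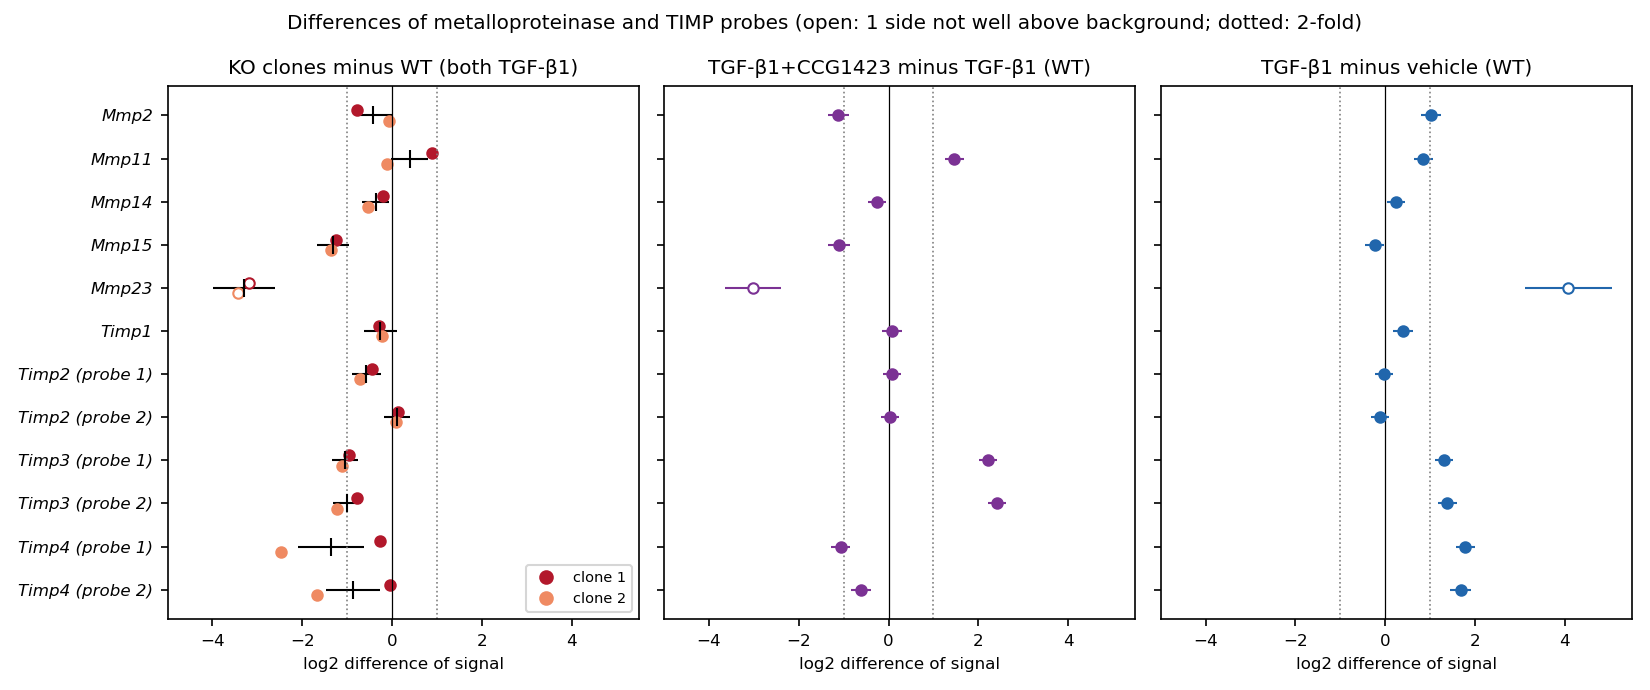
Log2 differences of the 12 probes tested in each of 3 comparisons. Left, each knockout clone minus wild type, both with TGF-β1, with the mean (tick) and its limma SE (bar); middle and right, single-array differences with the combined spot error of the 2 arrays (bars), open where 1 side was not well above background. Timp4 shows the widest gap between the clones, and the Timp3 probes lie furthest to the right in the middle panel.

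The knockout comparison set Tmsb4x knockout cells against wild-type cells, both under TGF-β1, and was the only one with replicates, 2 clones against 1 culture. Over the family, 12 of 14 probes entered the test (9 genes, without Mmp9). None passed an adjusted p of 0.05 in limma's test, against 0.478% of the 30561 probes tested, and 4 had an unadjusted p under 0.05 (Mmp15, Mmp23 and both Timp3 probes), against 5.66%. At 2-fold or more in both clones, 2 probes were lower, Mmp15 and Mmp23 (1.72% of all probes), and 0 were higher (0.589%). With normexp background correction Mmp15 was no longer among them, at -0.71. That correction added an offset of 50 units, which shrinks differences of dim probes. Clone 1 alone had 2 probes lower by 2-fold (3.29% of 31897 probes) and clone 2 alone had 6 (2.66% of 31385), the others being both probes of Timp3 and of Timp4. Of the 12 probes, 10 had a difference below 0 (51.0% of all probes), with a median of -0.71 against -0.01 over all probes tested. Timp2, Timp3 and Timp4 count by 2 probes each in these figures, so the 12 probes are not 12 separate genes. Mmp23 entered the test only through the wild-type array on which it was detected, and passed under 4 of the alternative settings (limma adjusted p of 0.00287 to 0.0333). The labels do not say whether the cultures were grown apart. The p-values rest on the spread between the 2 clones, because each wild-type group had 1 array. For each probe limma moderated that spread toward its trend over all probes tested. For Mmp15 the SD of the clones was 0.08, and the SE of the difference was 0.36. The spread between the clones may be technical, biological or both.

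The next comparison set wild-type cells given TGF-β1 and the MRTF inhibitor CCG1423 against those given TGF-β1 alone. No culture with CCG1423 alone was analysed here. With 1 array on each side there was no test. Of 12 probes, 3 were higher by 2-fold or more (Mmp11 and both of Timp3; 6.94% of 31509 probes), and 4 were lower (Mmp2, Mmp15, Mmp23 and 1 of Timp4; 6.5%). Mmp23 was compared only through the array with TGF-β1 alone, so it could hardly come out higher with CCG1423 added. The median of the 12 probes was -0.11, against -0.01 over all probes, so the genes differed in both directions. With normexp background correction and its offset of 50 units, an alternative added after seeing the data, 0 of the 12 were lower by 2-fold. Among the melanocyte markers measured on the same arrays, Mlana was 3.14-fold and Mitf 2.34-fold lower with CCG1423 added, with 7 of 7 markers below 0. The summed signal of the 7, relative to the array's 75th percentile, was 1750 with CCG1423 added and 2320 with TGF-β1 alone, while Cd68, of the macrophage list, was 2.82-fold higher. The summed signal of the 8 macrophage and neutrophil markers was 41.8 with CCG1423 added and 32.7 without it, with 3 of 8 detected. The part of these markers in the results was not tested.

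For TGF-β1 against vehicle, again with no test, 6 of 12 probes were higher by 2-fold or more (4.56% of 31767 probes) and 0 were lower (3.53%). They belonged to 4 of 9 genes (4.95% of 14145 genes): Mmp2, Mmp23, and Timp3 and Timp4 with 2 probes each. Mmp23 was compared only through the TGF-β1 array on which it was detected, so it could hardly come out lower. The median of the 12 probes was 0.94, against -0.05 over all probes. The lowest difference was that of Mmp15, at -0.23. With normexp background correction and its offset of 50 units, the 6 became 4, with Mmp2 at 0.54 and the second Timp4 probe at 0.98. Mmp23 was at 1.13 in place of 4.08. Postn, the fibroblast marker detected on all arrays, was 3.91-fold higher with TGF-β1. Lum, the other fibroblast marker compared, was detected with vehicle alone and was at least 6.46-fold lower with TGF-β1. Of the 7 melanocyte markers, only Tyr passed 2-fold, and it was 3.28-fold lower. The part of these markers in the results was not tested.

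How far 1 array can differ from another of the same group was read from the clones. The clones can differ in biology too, and no wild-type group had a second array. The spread between wild-type cultures of 1 treatment therefore has no value. Between clone 2 and clone 1, 11 probes were compared, of which 0 were higher by 2-fold (4.51% of 30635 probes) and 3 were lower (3.5%), both of Timp4 and that of Mmp11. Over all probes 8.0% differed by 2-fold between the clones, 13.4% with CCG1423 and 8.09% with TGF-β1. The widest gap between the clones in the family was the 4.62-fold of Timp4. Timp3, which was 4.66-fold and 5.34-fold higher with CCG1423, differed by 1.11-fold and 1.37-fold between the clones.

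**Figure D3:**
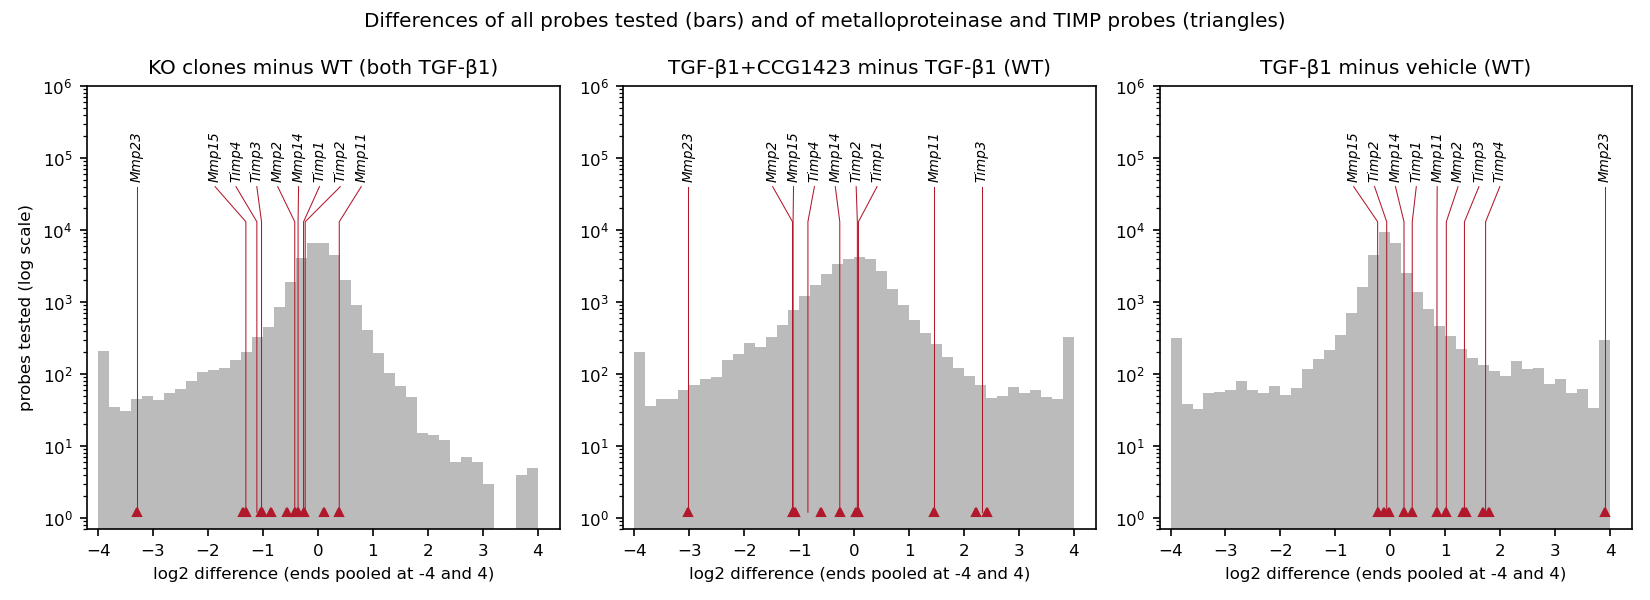
Number of probes (log axis) by log2 difference in 3 comparisons, in bins of 0.2 with the ends pooled, for all probes tested (grey bars). Triangles mark the family's 12 probes and the red lines the mean of each gene. In the TGF-β1 comparison these 12 probes lie mostly right of 0, and that of Mmp23 falls in the pooled end bin.

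Other genes around these proteases were counted by 1 probe a gene, the one with the highest mean over the arrays. Of 16 other MMP genes on the array, Mmp7, Mmp8, Mmp10, Mmp12, Mmp13, Mmp20, Mmp21, Mmp24 and Mmp25 were detected on no array by that probe. In the knockout 3 could be tested, of which 0 passed, with 0 at 2-fold in either direction (0.699% of 13729 genes higher and 1.58% lower). With CCG1423, Mmp19 was 2.97-fold higher by the probe used, while its other probe was detected on no array (1 of 3 genes higher, 6.01% of 14057 genes). With TGF-β1, Mmp17 and Mmp28 were each 2.37-fold higher (2 of 6 genes, 4.95% of 14145 genes) and 3 genes were lower (3.27%). The median of the 6 was -1.12, against -0.05 over all genes tested. The other Mmp28 probe was detected nowhere. The lower ones, Mmp16, Mmp1b and Mmp3, were detected on the vehicle array alone, so they could hardly come out higher. Mmp16, a membrane-type proteinase, was at least 24.9-fold lower by that probe, but its other probe was detected with TGF-β1 alone. The other Mmp1b probe was detected nowhere.

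Among 20 genes of MMP activation, inhibition and anchoring, 13 were tested in each comparison and none passed in the knockout. With TGF-β1, 3 genes were higher by 2-fold (4.95% of 14145 genes) and 0 lower (3.27%). Thbs1, which encodes thrombospondin-1, was 5.48-fold higher, with a level of 0.64 with TGF-β1 and -1.81 with vehicle. Furin, a proprotein convertase that activates MMP11 and MMP14, had a level of 4.56 with TGF-β1 and 2.79 with vehicle, a difference of 1.78. Pcsk6, another convertase, was detected with TGF-β1 alone, like Mmp23, and its second probe was detected nowhere. It was at least 3.58-fold higher than with vehicle, at least 2.8-fold lower with CCG1423 added, and at least 3.4-fold lower in clone 1 and at least 2.35-fold lower in clone 2 (limma adjusted p = 0.461). Pcsk6 was the 1 gene of the list past 2-fold in both clones (1.58% of 13729 genes lower). It was compared only through the wild-type TGF-β1 array, so it could hardly come out higher in the clones or with CCG1423, or lower against vehicle. Itgb3, an integrin chain, was 2.06-fold higher with CCG1423 added, and Spock2, a testican gene, was detected in clone 2 alone, at least 13.9-fold higher than in clone 1. Reck, a membrane inhibitor of MMPs, differed by 0.32 in the knockout, 0.91 with CCG1423 and -0.43 with TGF-β1. Of 29 ADAM and ADAMTS proteases, 15 were tested in the knockout, with 0 passed and 0 at 2-fold, and their median was -0.22 against -0.01 over all genes. With CCG1423, Adam8 was 2.76-fold lower and Adamts3, a procollagen processing enzyme, was detected on that array alone, at least 6.01-fold higher. With TGF-β1 the aggrecanase gene Adamts4 was 2.53-fold and Adam19 2.39-fold higher, and Adamts20 was 2.80-fold lower. Adamts17, by the 1 of its 3 probes used, was detected in clone 2 alone, at least 2.36-fold higher than in clone 1. Of 15 AP-1, ETS and NF-κB factors, which include known regulators of MMP promoters, 14 were tested and 0 passed in the knockout. Junb, an AP-1 subunit, was 2.66-fold higher with TGF-β1 than in the vehicle culture, Etv1 was 2.96-fold lower and Etv5 2.61-fold lower. Etv5 was also 2.16-fold lower with CCG1423 added. Etv4 and Etv5, ETS factors, were 8.63-fold and 4.62-fold higher in clone 2 than in clone 1, and Junb was 2.22-fold lower.

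The substrates were counted likewise. Of 20 collagen and other matrix genes, 16 were tested in the knockout and 0 passed. In both clones 3 were lower by 2-fold (1.58% of 13729 genes) and 1 was higher (0.699%), with a median of -0.78 against -0.01. Col4a1, a chain of the type IV collagen that MMP2 cuts, was 2.72-fold and 2.63-fold lower (limma adjusted p = 0.0986), and Col1a2 was 3.29-fold and 2.80-fold higher (limma adjusted p = 0.168). Eln, elastin, was detected in wild-type cells with TGF-β1 and in clone 1, and was 5.05-fold lower in clone 1 and at least 4.16-fold lower in clone 2 (limma adjusted p = 0.303), but its other probe was detected nowhere. In the knockout Eln entered the test only through the wild-type TGF-β1 array, because it was dim in clone 2. With TGF-β1, 6 of 17 were higher (4.95% of 14145 genes), led by Col1a1 at 29.7-fold, with a level of 1.15 with TGF-β1 and -3.74 with vehicle. Tnc was lower (1 of 17, 3.27% of all genes). The Tnc probe used was detected with vehicle alone, and the other Tnc probe in clone 2 alone. With CCG1423 added, 4 of 16 were lower by 2-fold (6.98% of 14057 genes) and 2 were higher (6.01%). Col1a1 was among the lower and Fn1, fibronectin, among the higher, with levels of 8.38 with CCG1423 and 7.35 without it. Between the clones, Postn, periostin, was 13.7-fold and Lama5, a laminin chain, 3.6-fold lower in clone 2. The wild-type culture with TGF-β1 enters every comparison but that between the clones, so their directions are not independent of each other.

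**Figure D4:**
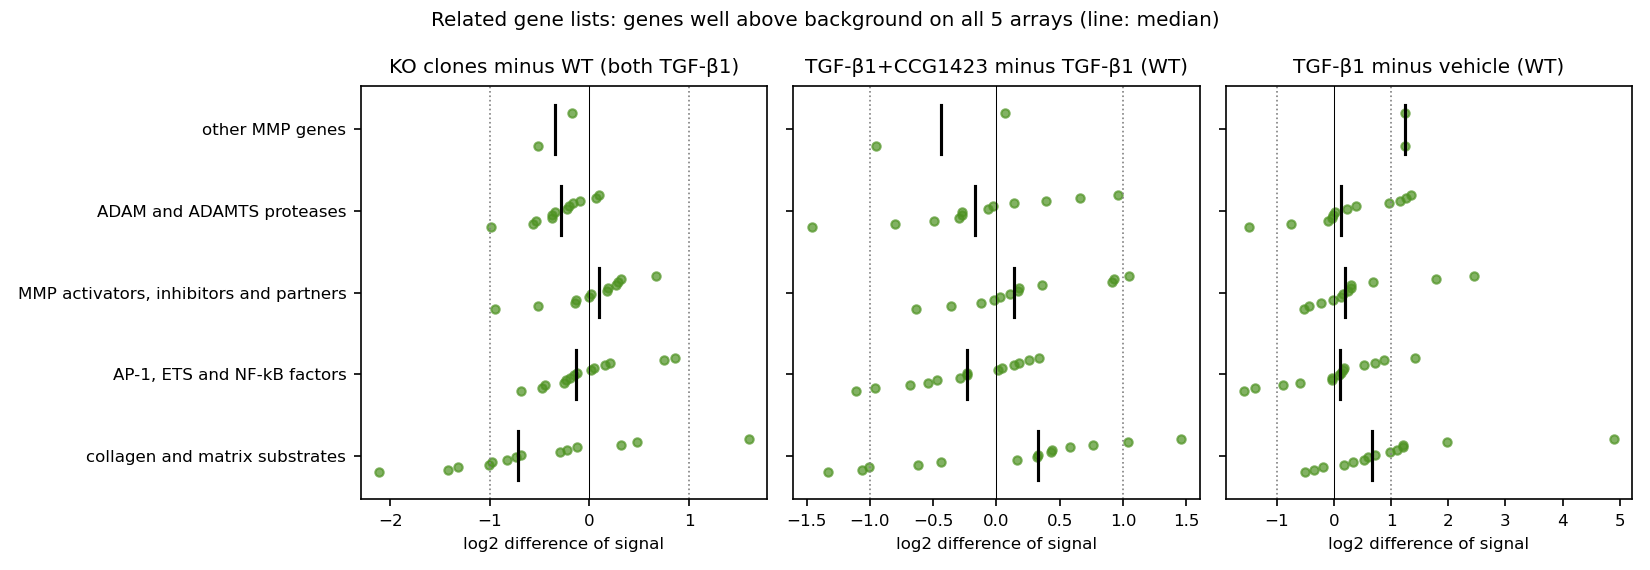
Log2 differences of the genes of 5 related lists that were detected on all 5 arrays (points, 1 probe a gene), with the list's median (line) and dotted lines at 2-fold, in 3 comparisons. The horizontal scale differs between panels. Col1a1 lies furthest to the right in the TGF-β1 panel.

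For the probes detected on all 5 arrays with a range of at least 1 on the log2 scale, the 2 genes with the most similar profile were sought among 12058 genes, by the root mean square difference of centred log2 levels over the 5 arrays. Axl, a receptor tyrosine kinase, was nearest to both Timp3 probes, at 0.35 and 0.42. Its level was 1.72 in clone 1, 1.63 in clone 2, 5.0 with TGF-β1 and CCG1423, 2.93 with TGF-β1 and 2.30 with vehicle. The next for the second probe was Phyhd1 at 0.49. Closer matches were found for Mmp2 (Ehd3 and Ncdn, both at 0.11), Mmp11 (Lrrc51 at 0.18 and Ptgs1 at 0.21) and Mmp15 (2310020H05Rik at 0.14 and Ube2cbp at 0.19). The Timp4 probes had different nearest genes, Cacna2d2 (0.30) and Baalc (0.35) for the first and Lef1 (0.19) and Pllp (0.24) for the second. With 5 arrays many profiles come close, and these genes are given as a description.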

How the data were processed

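Total RNA of 5 B16F1 cultures was labelled with Cy3 and hybridised to Agilent arrays, per the labels' protocols. The authors deposited scanner output of Agilent Feature Extraction 12.0.3.1, per the file headers. Its intensity values, the processed signal, were background-subtracted within each array by that software and not normalized between arrays. The deposited error of that signal gave the spot errors. The 0 or 1 marks for detection, saturation and outliers are other values set by the software, per the file headers. A value table of the series, also deposited by the authors, holds the same intensity times a constant for each array (its column medians were 23.2 to 29.2); it is linear, not centred and runs in the same direction, while the rule behind the constants stays unknown. The headers place the arrays on 1 slide in 1 scan, so no batch could be tested.

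From 59305 spots other than 3671 control spots, outlier spots were left out, log2 signals were averaged per probe and the array's 75th percentile was subtracted. A further 10 probes without a usable spot on an array were dropped. Probes were named by unversioned RefSeq accession through the RefSeq gene table, which matched 32988 of 56595. Groups came from the labels, and the knockout replicate number is the clone number. Differences are knockout minus wild type, CCG1423 minus TGF-β1, TGF-β1 minus vehicle, and clone 2 minus clone 1.

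A probe was compared when detected on every array of at least 1 group. The knockout was tested by probe with limma 3.58.1 (lmFit, then eBayes with trend, R 4.3.3), two-sided, on 5 arrays in 4 groups with 1 residual degree of freedom, adjusted by Benjamini-Hochberg over 30561 probes. The other comparisons have no test. Where 1 side was dim, its signal, or the lowest detected signal of that array (13.3 to 26.0 units) where that was higher, was used, so the fold is a lower bound. The test was tried on simulated data. Precision is limited by the number of arrays. Alternatives were quantile or median scaling, normexp background correction (offset 50 units), the value table and other filters. Further ones were 1 probe a gene, no trend, a 1.5-fold threshold and leaving out a clone. All 10 genes are named with every probe. From other lists up to 2 genes a direction past 2-fold are named by rule, and Furin, Reck, Mmp3 and the undetected MMPs were chosen after their values were seen. A gene that the rule on similar profiles named is not reported here. The members and lists were chosen with earlier results of these data known. Tables and figures were made with Python 3.11.15, pandas 2.3.3 and matplotlib 3.10.9.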

Additional observations from a re-analysis of the deposited data

How the results depend on the processing

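The direction of each family difference past 2-fold held under every alternative run. Sign changes occurred in differences of at most 0.27 in size (probes of Mmp15, Timp1, Timp2 and Timp3), those of Mmp15 and Timp3 only between the clones, and in the knockout difference of Mmp11, which was -0.12 without clone 1 and 0.89 without clone 2. In the knockout, the number of all probes past an adjusted p of 0.05 in limma's test was 146, and it was 0 with quantile scaling, 276 with normexp, 526 with the value table, 702 without a filter, 8 with probes detected on all arrays compared, 32 with 1 probe a gene and 388 without the trend. The number of family probes was 0, against 1 with normexp, the value table and no trend (Mmp23, limma adjusted p = 0.0333, 0.00287 and 0.0233) and 2 without a filter (Mmp23 at 0.0142 and the first Timp3 probe at 0.0456). The adjusted p ranged from 0.00287 to 0.158 for Mmp23, from 0.158 to 0.684 for Mmp15 and from 0.0456 to 0.756 for the first Timp3 probe.

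At 2-fold, the 707 knockout probes became 291 with normexp, 2248 without a filter, 254 with probes detected on all arrays compared, 313 with 1 probe a gene and 2398 to 2564 when a clone was left out, which leaves values without a test. The 2 family probes lower in the knockout became 1 with normexp (Mmp15 was lost), 4 with the value table, 1 with probes detected on all arrays compared, and 2 to 6 when a clone was left out. For CCG1423, 4235 became 1652 (normexp), 8344 (no filter), 2771 (detected on both arrays), 1826 (1 probe a gene) and 9965 (1.5-fold), and the 4 lower family probes became 0 with normexp, where Mmp2 and Mmp15 differed by -0.45 and -0.48 and Mmp23 by -0.81. For TGF-β1, 2570 became 1099, 6409, 1255, 1162 and 5158 under those settings in that order, and the 6 higher family probes became 4 with normexp and 5 with probes detected on both arrays. Likewise, between the clones 2452 became 929, 7311, 1141, 1049 and 6239. Between the clones, the 3 lower family probes became 1 with normexp, and the 0 higher became 1 with the value table and 1 at 1.5-fold. With the value table the median of all probes shifted by -0.20 for the knockout, -0.13 for CCG1423, 0.10 for TGF-β1 and 0.32 for the clones. The share of 2-fold probes that were higher was 12.2% with it, 15.5% with normexp and 53.9% with probes detected on all arrays, against 25.5%, in the knockout; 38.7% against 51.7% for CCG1423; and 79.6% against 56.3% between the clones. Without a filter, 31.8% of the knockout calls were higher, against 8.22%. The value table holds the same intensities times a constant for each array and is not centred, so differences in scale between arrays stay in it. They move all differences of a comparison by about the same amount, the median shift given above, and with it the shares. The cause of the shifts with normexp and with other filters was not tested. Normexp used the median signal, a choice made after seeing the data because the files hold no mean signal. Its offset of 50 units shrinks differences of dim probes. No paired analysis was possible because the groups compared share fewer than 2 replicate numbers. Signal over background limits Mmp9 and Mmp23, which were dim on most arrays.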
